A study of Homo sapiens with 34 samples.

Results

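The 42 genes described here encode proteins that build ribosomes in the nucleolus, and they were taken by gene symbol from the 23368 symbols counted in each library. They fall into 4 subunits of RNA polymerase I, 5 proteins of small nucleolar ribonucleoproteins (snoRNPs, the RNA-protein particles that modify ribosomal RNA), 4 abundant nucleolar proteins, 15 factors of the small subunit and 14 factors of the large subunit. Their RNA was measured in 34 libraries from 6 human blood cancer cell lines, which were either left untreated or given 10 µM etoposide for 4 hours. NALM6 and 697 are pre-B acute lymphoblastic leukaemia lines, RAMOS is a Burkitt lymphoma line of mature B cell type, JURKAT is a T cell leukaemia line, and THP1 and U937 are labelled as monocyte lines from an acute monocytic and a histiocytic leukaemia. Each group held 3 libraries, except that 697 etoposide and U937 control held 2 each. A vehicle for the controls is not given in the sources used here, and nothing states whether the replicates came from separate cultures, so the p-values measure only the spread between these libraries. All 42 members passed the filter on low counts in every line. The rule did not use their values, but the members were chosen with earlier results of these data known.

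Ribosome assembly starts when RNA polymerase I copies the ribosomal RNA genes. SnoRNPs modify the transcript, and a large particle, the small subunit processome, folds and cuts its 5′ part while other factors mature the large subunit. MYC, a transcription factor that drives cell growth, is known to bind and activate many of these genes, usually with its partner MAX at the DNA word CACGTG. Etoposide traps topoisomerase II on cut DNA and leaves double-strand breaks.

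Total counts ran from 8.18 to 37.1 M (mega) per library. CDKN1A, a cell cycle inhibitor gene switched on by DNA damage, rose in every line, by 40.4-fold in NALM6, 28.9-fold in 697, 4.59-fold in RAMOS, 1.91-fold in JURKAT, 1.40-fold in THP1 and 2.71-fold in U937. Lineage markers were in place in untreated cells. The summed level of 8 pre-B markers was 4297 CPM (scaled counts, taken per 1 M) in NALM6 and 4726 CPM in 697, 8 B cell markers summed to 3465 CPM in RAMOS, 8 T cell markers to 2183 CPM in JURKAT, and 10 myeloid markers to 3467 CPM in THP1 and 5041 CPM in U937. The NALM6 and 697 controls lay in another library pool than their etoposide libraries, so that pool and treatment cannot be told apart in those lines. Genes with a count numbered 13917 to 14978 per library in NALM6 controls and 15908 to 16132 after etoposide. In 697 they numbered 14355 to 14738 and 16408 to 17097. The cause of this difference was not tested. Every other line lay within 1 pool.

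A promoter sequence of 250 bases before to 50 bases after the start was found in RefSeq (GRCh38.p14) for 34 of the 42 members, some with several starts. The letters CACGTG, which read the same on both strands, occurred in 17 of 41 member promoters, or 41.5%, against 7.26% of all 35116 promoters in the table and 8.34% of the 22199 that belong to protein-coding genes. Counted by gene, 16 of 34 members held the word at a start. The stretches below show 5 members that hold it close to the start, with the word in capitals, and NOP56, which does not hold it at this start and was the member called higher in every line.
UTP18: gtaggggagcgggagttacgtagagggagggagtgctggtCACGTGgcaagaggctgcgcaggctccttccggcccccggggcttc
LYAR: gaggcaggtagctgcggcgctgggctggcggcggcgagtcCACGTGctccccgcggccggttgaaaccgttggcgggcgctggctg
DDX21: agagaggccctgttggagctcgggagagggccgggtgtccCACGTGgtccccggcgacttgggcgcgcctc
NAT10: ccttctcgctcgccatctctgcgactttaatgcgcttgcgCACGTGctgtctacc
UTP20: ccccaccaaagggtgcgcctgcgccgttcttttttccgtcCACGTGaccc
NOP56: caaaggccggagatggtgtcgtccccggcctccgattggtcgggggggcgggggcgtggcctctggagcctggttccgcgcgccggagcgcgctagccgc
The UTP18 stretch lies at chr17:51260417-51260502 on the plus strand, the LYAR stretch at chr4:4290040-4290125 on the minus strand and the DDX21 stretch at chr10:68956576-68956646 on the plus strand. The NAT10 stretch lies at chr11:34105574-34105628, the UTP20 stretch at chr12:101280055-101280104 and the NOP56 stretch at chr20:2652532-2652631, all on the plus strand. The word shown started 89 bases before the start of UTP18, which holds a second copy from base 5 after the start, 64 before that of LYAR, 31 before that of DDX21, 15 before that of NAT10 and 10 before that of UTP20. In NALM6, 10 of 16 members with the word and 10 of 18 without it were called lower after etoposide. In 697 these were 6 and 9, in RAMOS 7 and 7, in THP1 and U937 5 and 7 each, and in JURKAT 0 and 1. Higher calls were 2 and 7 in NALM6, 3 and 6 in 697 and 5 and 6 in RAMOS. They were 0 and 2 in THP1, 3 and 4 in U937 and 1 and 2 in JURKAT. Of all genes, 40.3% were lower and 41.3% higher in NALM6, 36.9% and 39.4% in 697 and 35.5% and 34.2% in RAMOS. For all genes of THP1 these were 17% and 14%, of U937 22.1% each way and of JURKAT 6.27% and 6.71%. The division by the word was made after the responses were known.

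After etoposide more members were called lower than higher in 5 of the 6 lines, except with upper-quartile scaling in RAMOS (17 higher and 16 lower) and 697 and with library size alone in U937, and the median member moved little. In NALM6, 25 of 42 members were called lower (59.5%, against 40.3% of all genes tested) and 11 higher (26.2%, against 41.3%), and the median member stood at 83.6% of control. In 697, 19 members were lower (45.2%, against 36.9% of all genes) and 11 higher (26.2%, against 39.4%), with a median of 92.4%. In RAMOS, 18 were lower (42.9%, against 35.5%) and 13 higher (31%, against 34.2%), with a median of 98.2%. In THP1, 15 were lower (35.7%, against 17%) and 3 higher (7.14%, against 14%), with a median of 95.9%. In U937, 16 were lower (38.1%, against 22.1%) and 10 higher (23.8%, against 22.1%), with a median of 97.4%. In JURKAT only PPAN was called lower (2.38%, against 6.27%) and 5 members were higher (11.9%, against 6.71%), with a median of 101.6%. Calls were made at an adjusted p under 0.05 in the quasi-likelihood F test of edgeR.

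MYC fell further than every member in NALM6, 697 and RAMOS, and it rose in JURKAT. In THP1 its log2 change of −0.66 was next to that of DDX10 (−0.65), and in U937 its −0.18 was smaller than the falls of DDX10 (−0.64), WDR43 (−0.56) and BOP1 (−0.50). MYC went from 743, 794 and 792 CPM in the 697 controls to 58.1 and 70.8 CPM, which is 8.26% of control (log2 change −3.60, SE 0.0820, edgeR adjusted p = 5.37e-14). In NALM6 it went from 842, 868 and 819.8 to 286, 265 and 283 CPM, and in RAMOS from 788, 819.5 and 827 to 311, 267 and 299.6 CPM, or 32.9% and 36.1% of control. In THP1 it fell from 239, 238 and 249.6 to 154, 158 and 149 CPM, 63.5% of control. In U937 the step was from 364 and 358 to 326, 317 and 312 CPM, 88.1% of control (adjusted p = 0.00117, but 0.0511 without control replicate 1). In JURKAT it rose from 281, 285 and 313 to 334, 365 and 349 CPM, 119% of control (log2 change 0.25, SE 0.0562, adjusted p = 0.004). The groups did not overlap in any line. MYC fell deepest in 697, and the median log2 change of the 42 was −0.11 in 697 and −0.26 in NALM6. RAMOS lost nearly as much MYC RNA as NALM6, and its median member changed by −0.03. A link between MYC and the members' changes was not tested, and in NALM6 and 697 pool and treatment cannot be told apart.

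**Figure D1:**
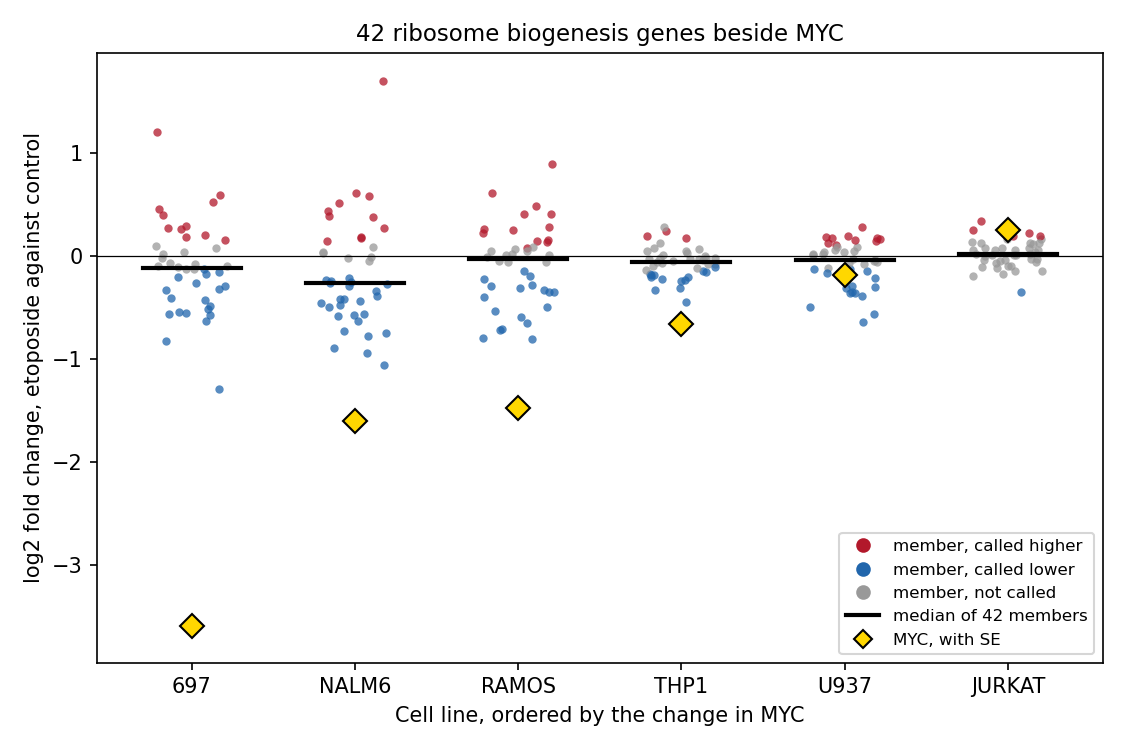
Log2 fold change (etoposide against control) of each of the 42 members (points, coloured by call), their median (black line) and MYC (diamond, with its SE), by cell line in the order of the MYC change. MYC runs from −3.60 in 697 to 0.25 in JURKAT, while every line's median member lies between −0.26 and 0.02.

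The balance of calls moved with the scaling. Upper-quartile scaling shifted the median of all genes to 0.18 in NALM6 and 0.21 in 697, and scaling by library size alone shifted it to 0.16 and 0.14. Because a scaling moves all genes of a line by about the same step, the members' median minus that of all genes is fixed whatever the scaling. It was −0.28 in NALM6, −0.16 in 697, −0.03 in RAMOS, 0.02 in JURKAT, −0.06 in THP1 and −0.04 in U937. In NALM6 the split of 11 higher and 25 lower became 17 and 21 with library size alone and 17 and 20 with the upper quartile. In 697 the split of 11 and 19 became 16 and 13 with the upper quartile. In THP1 the split of 3 and 15 became 8 and 10 with library size alone and 5 and 12 with the upper quartile, in U937 that of 10 and 16 became 14 and 12 with library size alone, and in JURKAT that of 5 and 1 became 7 and 0. The 10 higher calls of U937 were 2 without control replicate 1, 4 without control replicate 2 and 6 without etoposide replicate 2. The 5 higher calls of JURKAT were 3 without control replicate 2, etoposide replicate 1 or etoposide replicate 2.

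As a share of all counts, the 42 genes took 1.39 ± 0.0293% (SD, n = 3) in untreated NALM6 and 1.19 ± 0.00662% (n = 3) after etoposide. In 697 the share went from 1.27 ± 0.0220% (n = 3) to 1.15 ± 0.0821% (n = 2). In both pre-B lines every etoposide library lay below every control. In U937 the share went from 1.09 ± 0.000453% (n = 2) to 1.15 ± 0.0138% (n = 3), without overlap. In RAMOS it was 1.19 ± 0.0125% and 1.21 ± 0.00917%, in JURKAT 0.811 ± 0.0306% and 0.851 ± 0.0368%, and in THP1 0.667 ± 0.0139% and 0.665 ± 0.00968% (n = 3 each), and the groups overlapped in these 3 lines. These shares are of unscaled counts. On the TMM scale of all 34 libraries the members' sum overlapped in U937 (11758 to 11887 CPM in controls and 11646 to 12145 CPM after etoposide). On that scale it did not overlap in THP1, where controls stood at 6864 to 7131 CPM and etoposide libraries at 6541 to 6744 CPM. The mean sum of the 42 went from 14805 to 11374 CPM in NALM6 and from 14685 to 12332 CPM in 697. Most of that fall lay in the 4 abundant nucleolar proteins, from 5729 to 3363 CPM and from 5815 to 4102 CPM. The snoRNP, small subunit and large subunit sums fell less. The sum of the RNA polymerase I subunits went from 450 to 472 CPM in NALM6 and from 494 to 453 CPM in 697. Fewer cells with a transcript and less of it per cell cannot be told apart in such bulk RNA.

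**Figure D2:**
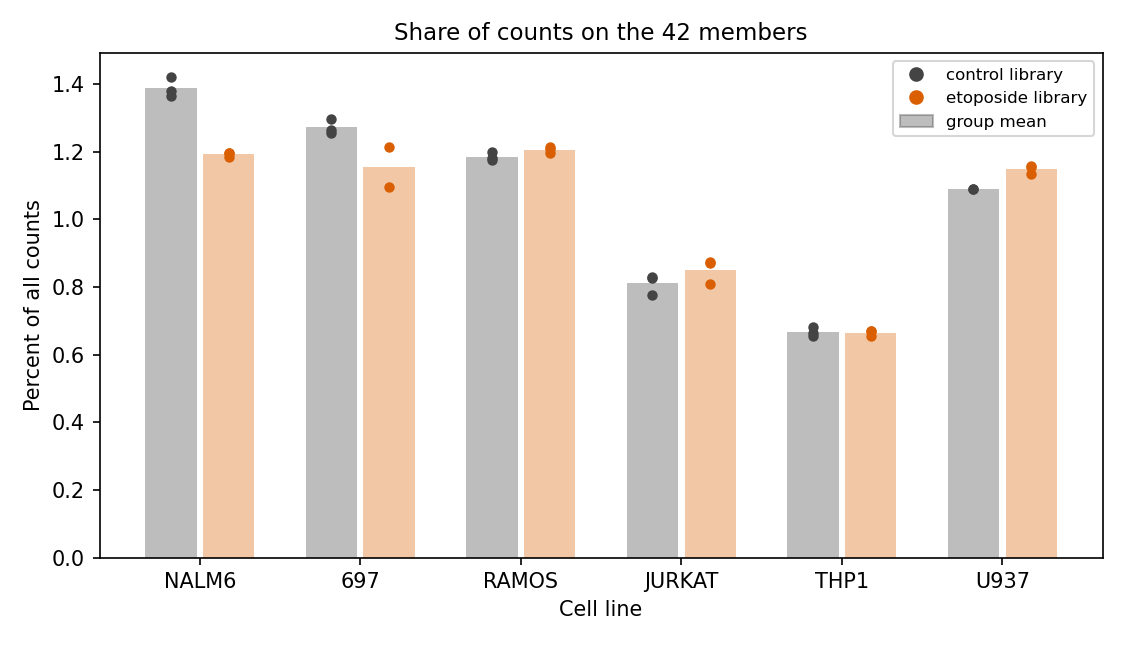
Percent of all counts on the 42 members in each library (points) with the group mean (bars), control beside etoposide for each cell line. Before any scaling, the share is lower after etoposide in NALM6 (1.39% to 1.19%) and 697 (1.27% to 1.15%). It is higher in U937 (1.09% to 1.15%), where the TMM-scaled sums overlap. By TMM-scaled sums, most of the fall in NALM6 and 697 lies in the 4 abundant nucleolar proteins.

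Among the 42, NOP56 was the only gene called in the same direction in all 6 lines. It encodes a core protein of the box C/D snoRNPs, which guide methylation of ribosomal RNA. In NALM6 it rose from 657, 612 and 612 CPM to 874, 829 and 838 CPM, 135% of control (log2 change 0.44, SE 0.0426, edgeR adjusted p = 9.24e-13). In RAMOS it rose from 577, 607 and 593.5 to 758, 819.99 and 793 CPM, 133% of control. The rise was smaller in 697 (644, 587 and 609 to 676 and 795 CPM, 119.9%) and in U937 (803 and 796 to 958, 979 and 978 CPM, 121.5%). It was smallest in JURKAT (340.1, 311 and 339 to 397, 380.2 and 359.7 CPM, 115%) and THP1 (185, 187 and 187 to 207, 211 and 221 CPM, 114%). No group of it overlapped. The JURKAT call (adjusted p = 0.0192) was lost without control replicate 2 (0.103), etoposide replicate 1 (0.143) or etoposide replicate 2 (0.0521). NOP56 holds 5 snoRNA genes inside its span on chromosome 20.

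The 4 other snoRNP genes did not follow NOP56. NOP58, its box C/D partner, was called lower in NALM6 (log2 change −0.45) and THP1 (−0.14) and in no other line. FBL, the methyltransferase of the same particle, was lower in NALM6 (−0.42) and higher in RAMOS (0.08) and U937 (0.11). DKC1, the pseudouridine synthase of the box H/ACA snoRNPs, fell in NALM6: its controls stood at 507, 489.6 and 492 CPM and its etoposide libraries at 253, 239 and 226 CPM, 48.2% of control (log2 change −1.05, SE 0.0464, edgeR adjusted p = 6.24e-25). In 697 DKC1 went from 349, 366 and 369 to 195 and 214 CPM, 56.6% of control (adjusted p = 9.7e-10). It was also lower in RAMOS, THP1 and U937, at 87.6%, 86.7% and 91.6% of control, and 93.2% in JURKAT was not called. The U937 call (adjusted p = 0.0144) was lost without either control replicate, at 0.17 and 0.122. NOLC1, a chaperone of snoRNPs, fell in NALM6 and 697 (−0.47 and −0.56). It rose in JURKAT from 427, 397 and 401 to 489, 478 and 490.3 CPM and in U937 from 640.4 and 653 to 724, 754 and 745 CPM (0.25 and 0.20, adjusted p = 0.00161 and 0.000257).

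All 4 abundant nucleolar proteins were called lower in NALM6 (40.3% of all genes were) and 3 of the 4 in 697 (36.9%), where LYAR (−0.08) was not called. In RAMOS 1 was called lower and 1 higher (35.5% and 34.2% of all genes), and none was called in JURKAT, THP1 or U937. NCL encodes nucleolin, which binds ribosomal RNA and chromatin, and had the highest level per kilobase of exon among the 42 in every untreated line. It fell in NALM6 from 3352, 3184 and 3184 to 1776, 1755 and 1726 CPM, 54.1% of control (edgeR adjusted p = 1.77e-25). In 697 it fell from 2994, 2854 and 2874 to 1758 and 2214 CPM, 68.3% of control (adjusted p = 0.000182). In the 4 other lines NCL stood between 97.5% and 101.8% of control and was not called. NPM1, the histone and ribosome chaperone nucleophosmin, likewise fell to 66.8% in NALM6 and 74.6% in 697 and was called in no other line. PA2G4, an RNA-binding growth regulator, was lower in the same pair (−0.57 and −0.41) and higher in RAMOS (0.14). LYAR, a zinc finger protein of the nucleolus, was lower in NALM6 (−0.78) and RAMOS (−0.15). NPM1 has processed pseudogene copies, so its reads could be split.

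**Figure D3:**
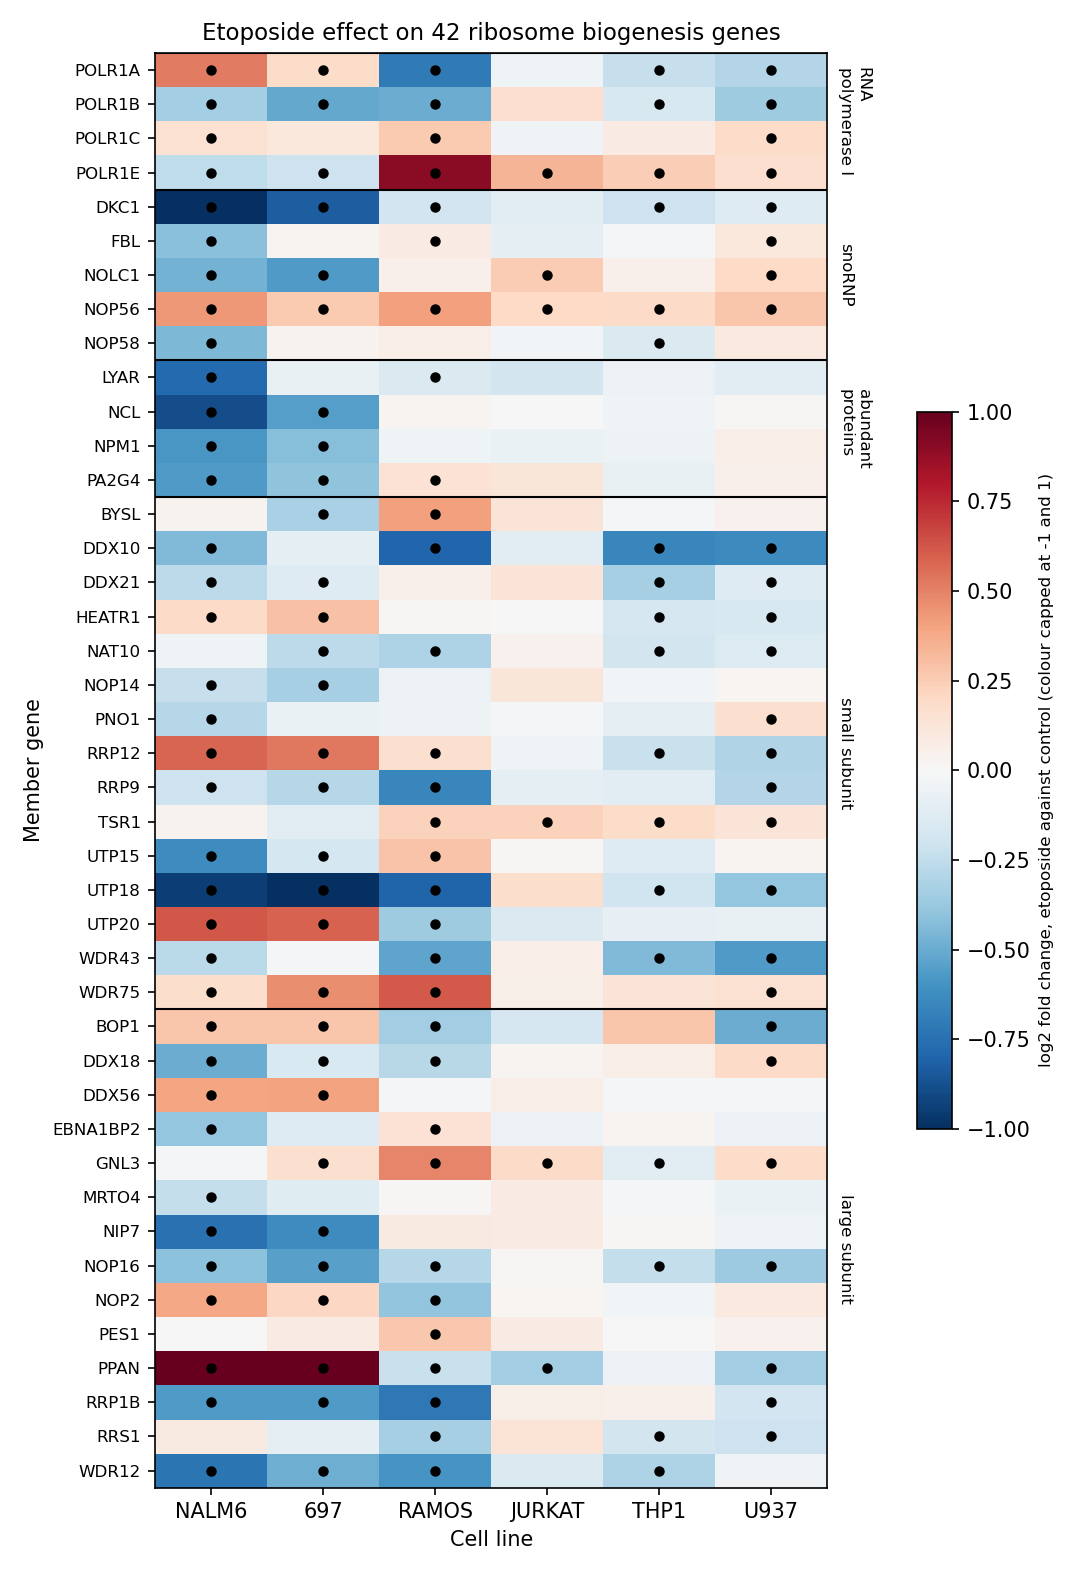
Log2 fold change of the 42 members (rows, by role) in the 6 lines (columns), with a dot where the change was called at an edgeR adjusted p under 0.05. NOP56 is higher in all 6 columns, UTP18, DKC1, POLR1B and NOP16 are lower in 5, and the JURKAT column holds 6 dots.

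The 4 subunits of RNA polymerase I moved apart within single lines. POLR1A encodes the largest subunit. It rose in NALM6 from 123, 163 and 161 to 215, 209.9 and 219 CPM (log2 change 0.52, SE 0.0831, edgeR adjusted p = 6.74e-05), and the lowest control library stood apart from the other 2. In RAMOS it fell from 177, 172 and 183 to 113, 103 and 109 CPM, 61.3% of control (adjusted p = 9.52e-20). It was also higher in 697 (0.19) and lower in THP1 (−0.23) and U937 (−0.29). POLR1B, the second largest subunit, was called lower in 5 lines, with log2 changes from −0.51 (697) to −0.16 (THP1), and its value in JURKAT, 0.16, was not called. POLR1C, which RNA polymerase III shares, was higher in NALM6, RAMOS and U937 (0.15, 0.26 and 0.18). POLR1E, a smaller subunit of the same enzyme, rose in RAMOS from 88.8, 88.1 and 87.1 to 167, 160.9 and 164 CPM (187% of control, log2 change 0.90, SE 0.0440, adjusted p = 4.49e-24). POLR1E also rose in JURKAT (42.7, 39.0 and 45.3 to 54.8, 54.8 and 51.5 CPM, adjusted p = 0.00527), in THP1 (78.2, 74.5 and 74.0 to 90.2, 91.6 and 86.5 CPM, 0.000353) and in U937 (112% of control, 0.0359). In NALM6 and 697 it was lower, at 83.9% and 86.9% of control.

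Factors of the small subunit held genes that fell in most lines and some that rose. UTP18, a WD-repeat protein of the processome, fell in 697 from 128, 121 and 118 to 52.5 and 47.3 CPM, 40.9% of control (log2 change −1.29, SE 0.0713, edgeR adjusted p = 4.55e-11). In NALM6 it fell from 114, 112 and 118 to 57.2, 63.2 and 58.0 CPM (52%, adjusted p = 6.39e-19). In RAMOS it fell from 89.0, 88.8 and 90.3 to 53.8, 52.7 and 47.2 CPM (57.5%, adjusted p = 3.12e-18). THP1 at 87% (adjusted p = 0.00635, 0.0503 without etoposide replicate 2) and U937 at 76.6% were also called lower, while JURKAT at 112.7% was not called (adjusted p = 0.104). DDX10, an RNA helicase whose yeast relative releases a snoRNA from the pre-ribosome, led the fall in both monocyte lines. It went from 51.2, 45.6 and 44.6 to 29.6, 29.7 and 30.9 CPM in THP1 (63.8%, adjusted p = 1.54e-09) and from 59.1 and 58.7 to 36.6, 36.4 and 40.2 CPM in U937 (64.2%, adjusted p = 1.33e-08). RAMOS had 57.6% of control (adjusted p = 2.23e-15) and NALM6 73.8%, and 697 and JURKAT were not called. WDR43, of the part of the processome that joins the nascent transcript first, was lower in THP1 (143, 143 and 137.5 to 103, 97.7 and 112 CPM, adjusted p = 2.87e-09), in U937 (191 and 191 to 128, 129 and 131 CPM, 1.22e-10), in RAMOS (69.2% of control) and in NALM6 (82.8%). In 697 it was at 98.9% of control, not called, and upper-quartile scaling turned its sign (0.15).

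The RNA helicase DDX21 was lower in NALM6, 697, THP1 and U937, and in THP1 it went from 224, 208 and 207 to 169, 171 and 169 CPM (79.6%, edgeR adjusted p = 7.81e-08). Its small change in 697 (−0.13) turned to 0.04 with upper-quartile scaling. NAT10, the acetyltransferase of small subunit RNA, was lower in 697, RAMOS, THP1 and U937, with log2 changes from −0.31 to −0.14. RRP9, which belongs to the U3 snoRNP, was lower in NALM6, 697, RAMOS and U937, most in RAMOS at 63.6% of control. UTP20, a long scaffold protein of the processome, went up in both pre-B lines and down in RAMOS. Its libraries stood at 81.4, 82.7 and 94.0 CPM against 129, 134 and 133 CPM in NALM6 (153.6%, adjusted p = 2.01e-13), at 107, 123 and 103 against 165 and 169 CPM in 697 (151%, adjusted p = 1.04e-06) and at 131, 133 and 142 against 104, 107 and 109 CPM in RAMOS (78.4%, adjusted p = 1.65e-09). RRP12, an export factor of the small subunit, rose in NALM6 from 154, 166 and 165 to 248, 239 and 243 CPM and in 697 from 130.1, 133 and 135 to 190.2 and 192 CPM (150.1% and 144%). It rose less in RAMOS (111.5%) and fell in THP1 and U937 (85.9% and 81%). WDR75, a processome protein, was higher in NALM6, 697, RAMOS and U937, most in RAMOS, where it went from 95.7, 88.0 and 94.5 to 143, 139 and 142 CPM (152.95%, adjusted p = 5.89e-17). TSR1, a late assembly factor of the small subunit, rose in the 4 lines other than the pre-B lines (log2 changes from 0.13 to 0.23), in JURKAT from 137, 134 and 143.5 to 164, 162 and 161 CPM (adjusted p = 0.00673). The remaining members HEATR1 and UTP15 were called in 4 and 3 lines, with both directions, and NOP14, PNO1 and BYSL in 2 lines each.

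**Figure D4:**
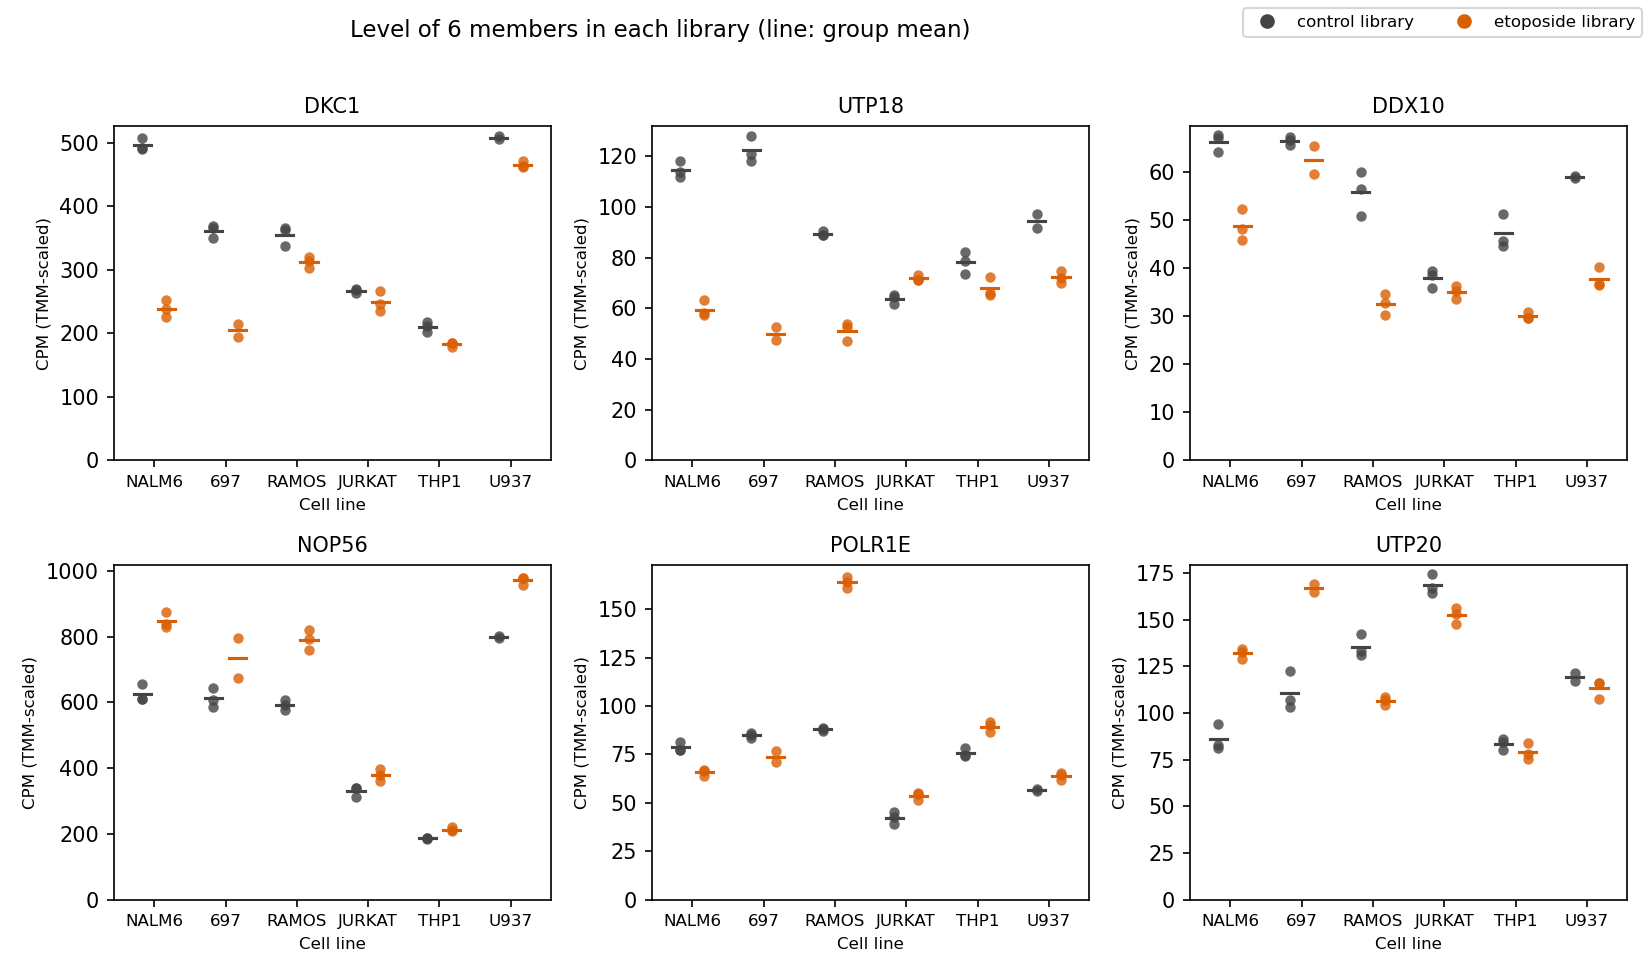
Level in CPM, scaled by TMM within each line, of DKC1, UTP18, DDX10, NOP56, POLR1E and UTP20 in every control and etoposide library, with group means. The control and etoposide points of NOP56 separate upward in all 6 lines, those of POLR1E separate upward in 4 and downward in NALM6 and 697, and those of UTP20 separate upward in NALM6 and 697.

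Among the large subunit factors, NOP16, whose yeast relative acts in early assembly, was called lower in 5 lines, with log2 changes from −0.54 (697) to −0.24 (THP1). WDR12, PES1 and BOP1 form a single complex that is needed to process large subunit RNA. WDR12 was lower in NALM6, 697, RAMOS and THP1 (60.4%, 71.4%, 66.5% and 80.9% of control), while PES1 was called only in RAMOS, where it was higher (0.27). BOP1, at low counts, was higher in NALM6 and 697 (0.28 and 0.27) and lower in RAMOS (−0.35) and U937, where it went from 21.4 and 17.98 to 13.6, 14.98 and 13.4 CPM (edgeR adjusted p = 0.000231). RRP1B, which brings protein phosphatase 1 to the nucleolus, fell in RAMOS from 285, 308 and 304 to 187, 176 and 185 CPM (60.9%, adjusted p = 2.77e-21), and was also lower in NALM6, 697 and U937. NIP7, needed for exact cutting of the precursor RNA, fell in NALM6 to 59.7% and in 697 from 136.5, 128 and 132 to 85.8 and 85.6 CPM (64.7%, adjusted p = 6.84e-08), and was called in no other line. GNL3, the GTPase nucleostemin, rose in RAMOS from 292, 277 and 299.98 to 401, 411 and 405 CPM (140.1%, adjusted p = 1.04e-15). GNL3 also rose in 697, JURKAT and U937 and fell in THP1 (92.8%), and in NALM6, where it was not called, its sign depended on the scaling (−0.02, and 0.12 or 0.14 with library size alone or the upper quartile).

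PPAN, whose yeast relatives act in large subunit assembly, showed the widest span of responses. It rose in NALM6 from 6.78, 9.35 and 9.88 to 30.7, 30.6 and 25.5 CPM (326% of control, edgeR adjusted p = 9.04e-18) and in 697 from 12.8, 7.12 and 9.04 to 25.0 and 19.9 CPM (232%, adjusted p = 0.000982). It was lower in U937 (78.5%), in RAMOS (85.9%, adjusted p = 0.0312) and in JURKAT, where 23.3, 27.6 and 22.7 became 20.5, 18.3 and 18.8 CPM (78.7%, adjusted p = 0.0347). The JURKAT call was lost without control replicate 2 (0.167) or without any of the etoposide replicates (0.0615, 0.13 and 0.102). PPAN shares exon bases with P2RY11 and with a readthrough transcript of both, so its reads are uncertain. In all, 16 of the 42 members share exon bases with another protein-coding gene. DDX18, an RNA helicase, was lower in NALM6, RAMOS and 697, where upper-quartile scaling turned its sign (−0.15 to 0.02), and rose in U937 from 255 and 261 to 281, 293 and 308 CPM (114%, adjusted p = 0.00162). NOP2, a methyltransferase of large subunit RNA, was higher in NALM6 and 697 (0.39 and 0.21) and lower in RAMOS (−0.40). DDX56, another helicase, rose only in NALM6 and 697 by its calls (0.39 and 0.41). RRS1, which helps to place the 5S RNA, was lower in RAMOS, THP1 and U937, and MRTO4 and EBNA1BP2 were called in 1 and 2 lines.

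Counted over lines, 17 of the 42 members were called in opposite directions in different lines. DKC1, POLR1B, UTP18 and NOP16 were lower in 5 lines, 7 members were lower in 4, and no member was lower in all 6. WDR75, TSR1, POLR1E and GNL3 were higher in 4 lines and NOP56 in 6. JURKAT was the line with the highest value for 14 members and NALM6 the line with the lowest for 16. None of these counts over lines was made for all genes, so whether they set the members apart was not tested.

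Direct tests between lines found differences in the etoposide effect on some members. These contrasts were fitted over all 34 libraries and 17008 genes. Pool and treatment cannot be told apart in NALM6 and 697, which limits every contrast that holds either line. Between NALM6 and 697, 12 members were lower in NALM6 relative to 697 (16.1% of all genes were) and 4 higher (15.1% of all genes). MYC fell less in NALM6, by a difference of 2.00 (SE 0.0908, edgeR adjusted p = 5.04e-28). Among the members LYAR differed most (−0.70, SE 0.0997, adjusted p = 4.18e-08), followed by NOP58 (−0.49) and UTP15 (−0.46). BYSL, UTP18, POLR1A and NAT10 were the 4 higher in NALM6 (0.35, 0.34, 0.33 and 0.22). The 12 became 7 without 697 etoposide replicate 2, and the 4 became 2 without NALM6 control replicate 1. Of THP1 and U937, 2 members were higher in THP1 (BOP1, 0.77, and RRP1B, 0.23; 5.96% of all genes) and 3 lower (GNL3, −0.29, WDR12, −0.28, and DDX21, −0.21; 7.06% of all genes). The counts of this pair were 0 and 1 without U937 control replicate 1, and 1 and 1 without U937 control replicate 2 or U937 etoposide replicate 3. The higher count was also 1 without THP1 control replicate 1 or 2, THP1 etoposide replicate 1 or 3, or U937 etoposide replicate 1. MYC differed between the same lines by −0.48 (SE 0.0862, adjusted p = 4.61e-05).

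RAMOS and JURKAT had the largest count of differing members among the 3 pairs tested. Relative to JURKAT, 15 members were lower in RAMOS (18.9% of all genes) and 8 higher (16.9%). UTP18 differed by −0.98 (SE 0.0921, edgeR adjusted p = 2.66e-14), RRP1B by −0.78, DDX10 by −0.68, POLR1A and POLR1B by −0.67 each, and MYC by −1.73. POLR1E was higher in RAMOS by 0.55 (SE 0.0880, adjusted p = 3.28e-07) and WDR75 by 0.54. The 8 became 5 without RAMOS control replicate 1 or RAMOS etoposide replicate 1. Against the mean of both monocyte lines, 10 members were higher in RAMOS (15.5% of all genes) and 9 lower (19.2%), led by POLR1E (0.69) and RRP1B (−0.65). Against the mean of the 5 other lines, 11 members were higher in 697 (23.8% of all genes) and 15 lower (24%). PPAN (1.05) and UTP18 (−0.87) stood at the ends, and MYC at −2.88. This contrast cannot tell pool and treatment apart in 697.

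**Figure D5:**
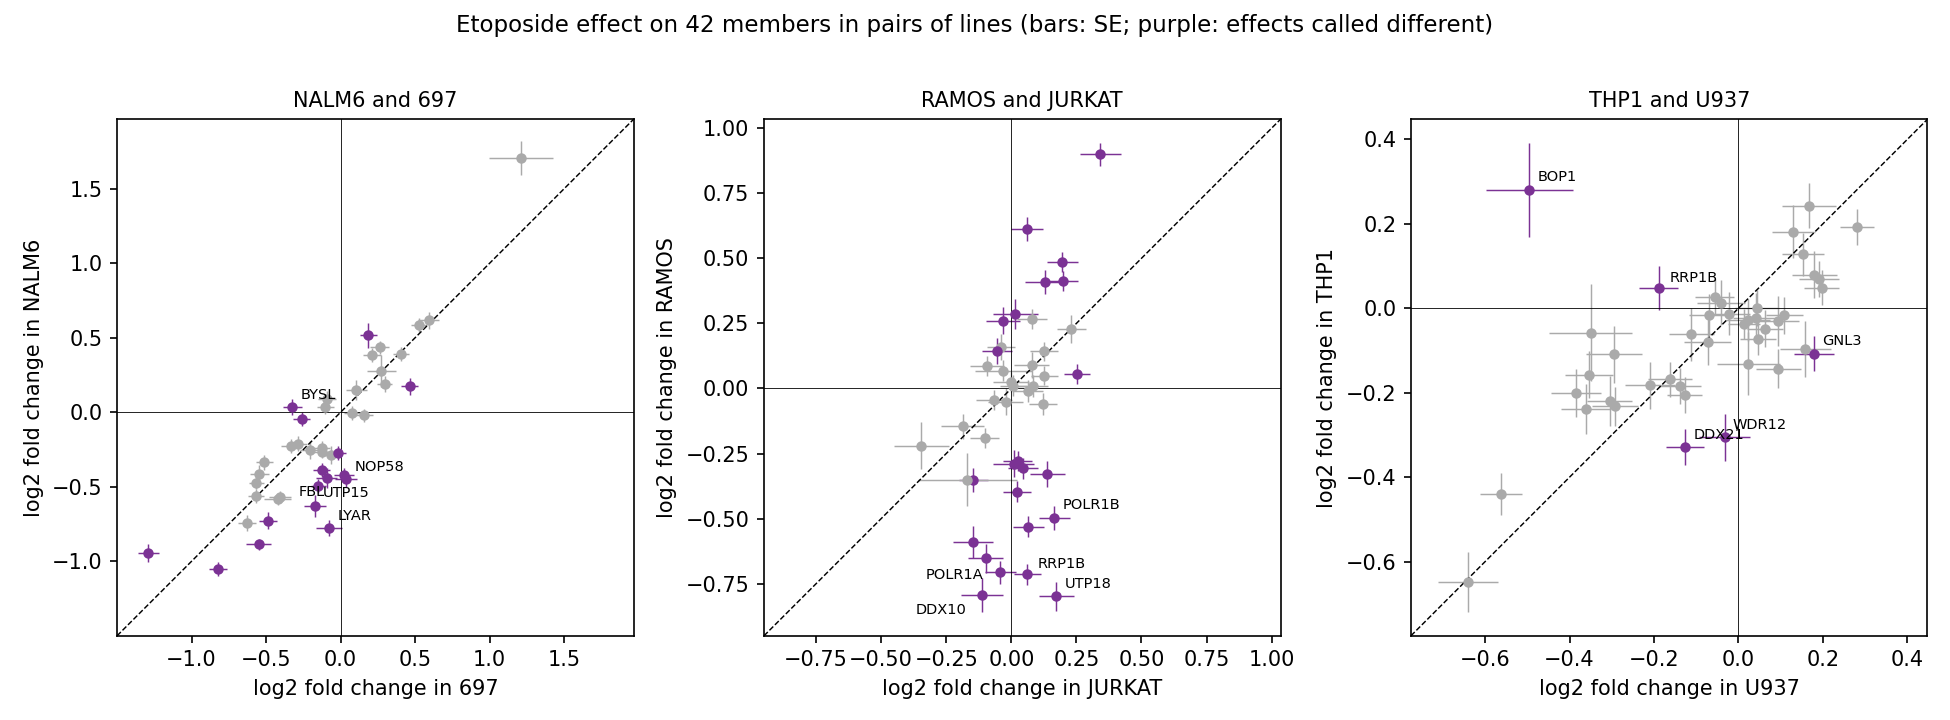
Log2 fold change of the 42 members in 1 line against another, for NALM6 and 697, RAMOS and JURKAT, and THP1 and U937, with SE bars; purple points are members whose effects were called different, 5 of them named in each panel, and the dashed line marks equal effects. In the middle panel most members spread along the RAMOS axis, where UTP18 stands at −0.80 and POLR1E at 0.90, while JURKAT values stay between −0.35 and 0.34.

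Of 119 listed factors that were counted, 72 of 118 tested were lower in NALM6 (61%) and 25 higher, and 64 of 118 were lower in 697 (54.2%) and 25 higher. In RAMOS these were 42 and 37 of 117, in THP1 19 and 11 of 117, in U937 31 and 35 of 118, and in JURKAT 1 and 13 of 118. The lower shares of 35.9% in RAMOS and 16.2% in THP1 were close to the 35.5% and 17% of all genes, and those of NALM6 and 697 stood beside 40.3% and 36.9%. In U937, 26.3% were lower and 29.7% higher, against 22.1% of all genes in each direction, and in JURKAT 0.847% and 11% against 6.27% and 6.71%. All 12 other snoRNP genes were lower in NALM6 and 11 of them in 697, among them NUFIP1, an assembly factor (−0.88 and −0.93), and RUVBL1, an ATPase of the same machinery (−0.67 and −0.59). RUVBL1 was lower in RAMOS as well (−0.98). Of the 15 genes of the nuclear exosome and its partners, which trim precursor RNA, 11 were lower in NALM6 and 12 in 697, led by the helicase SKIV2L2 (−1.13 and −1.01). UBTF, the factor that opens ribosomal DNA for RNA polymerase I, fell in 697 (−1.20) and RAMOS (−0.76). MDN1, the giant ATPase that strips factors from the large subunit, rose in NALM6 (165 to 451 CPM, 1.45) and 697 (65.6 to 160.3 CPM, 1.29). In both of those lines pool and treatment cannot be told apart. MDN1 fell in RAMOS (343 to 205 CPM, −0.74). NOL11, a processome protein, fell in 697 to the largest extent of its list (382 to 132 CPM, −1.53).

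Within the network of MYC partners, MXD1, which encodes a rival of MYC for the partner MAX, rose in every line. Its log2 change was 2.58 in NALM6, 3.44 in 697, 0.96 in RAMOS, 0.64 in JURKAT, 1.21 in THP1 and 1.90 in U937. MXD3 of this list was lower in 697 (−0.69), RAMOS (−1.18), JURKAT (−1.15), THP1 (−0.79) and U937 (−0.67). MXI1 was lower in NALM6 (−1.13) and higher in U937 (0.36). With MYC included, 8 of 11 tested were lower in NALM6, 5 of 11 in 697 and 6 of 11 in RAMOS. Lower calls were 1 of 12 in JURKAT, 5 of 11 in THP1 and 6 of 11 in U937. Higher calls were 2, 3, 1, 4, 2 and 3 in the same order of lines. The shares of all genes are given with the next list. Of the genes outside the nucleolus that are linked to MYC and growth, 19 of 25 tested were lower in NALM6 (76%) and 15 of 24 in 697 (62.5%), with a median at 71.1% and 81.2% of control. These were 10 of 24 in RAMOS, 1 of 25 in JURKAT, 4 of 25 in THP1 and 9 of 25 in U937. The medians there were 98.1%, 102.7%, 100.5% and 94.2% of control. Higher calls were 4 in NALM6, 2 in 697, 8 in RAMOS, 3 in JURKAT, 2 in THP1 and 4 in U937. Of all genes 41.3%, 39.4%, 34.2%, 6.71%, 14% and 22.1% were higher in these lines. NME2 rose from low levels in NALM6 (0.599 to 13.8 CPM, 4.56) and 697 (1.20 to 23.4 CPM, 4.23) and fell in JURKAT (−0.39). All genes were lower at 40.3% in NALM6 and 36.9% in 697, and the list's 41.7% in RAMOS, 4% in JURKAT, 16% in THP1 and 36% in U937 stood beside 35.5%, 6.27%, 17% and 22.1%. PPAT, which starts purine synthesis, fell in both pre-B lines (−1.30 and −1.48) and rose in JURKAT (0.30).

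Lineage markers moved beside these changes, most in the B-lineage lines. The summed level of the 8 pre-B markers went from 4098 to 4519 CPM in NALM6 controls to 1533 to 1666 CPM after etoposide, and from 4655 to 4795 CPM to 1561 to 1611 CPM in 697. In NALM6 7 of the 8 were called lower and in 697 all 8, against 40.3% and 36.9% of all genes. The sum of the 8 B cell markers in RAMOS went from 3303 to 3597 CPM to 2278 to 2334 CPM, and 7 of them were called lower (35.5% of all genes). The 8 T cell markers of JURKAT went from 2119 to 2292 CPM to 1801 to 1908 CPM, with 5 lower (6.27% of all genes). The 10 myeloid markers of U937 went from 5012 to 5070 CPM to 4598 to 4689 CPM. Of 9 tested there, 3 were lower and 1 higher (22.1% of all genes each way). In THP1 the myeloid sums overlapped, and 5 of the 10 were lower (17% of all genes). The summed level of the 10 myeloid markers went from 48.0 to 54.7 CPM in NALM6 controls to 90.9 to 101.1 CPM after etoposide, and from 32.5 to 34.6 CPM to 128 to 130.4 CPM in 697. In both treated groups 9 of the 10 had a count and ELANE was at 0, and in both control groups 8 of the 10 had a count. The highest after etoposide were SPI1 in NALM6 (76.2 CPM, unscaled) and ITGAM in 697 (75.3 CPM, unscaled). Of 5 myeloid markers tested in NALM6, 4 were called higher and 1 lower, and of 6 in 697, 5 were higher and 1 lower. Of all genes 41.3% were higher in NALM6 and 39.4% in 697. The part of the lineage markers in the members' changes was not tested.

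Before treatment the median member was highest in the pre-B lines and U937. The controls of NALM6 and 697 shared a library pool, as did those of THP1 and U937, while JURKAT and RAMOS lay in pools of their own among these controls, so that line and pool cannot be told apart in the other comparisons of level. On a scale shared by all lines, 697 had the highest mean for 15 of the 42, NALM6 for 13, U937 for 9, RAMOS for 4 and JURKAT for 1. The lowest mean was in JURKAT for 24 and in THP1 for 16. Such counts were not made for all genes. The order of JURKAT and THP1 depends on the scale. On the shared scale the mean sum of the 42 was 6689 CPM in untreated JURKAT and 6978 CPM in THP1, with overlap. As a share of unscaled counts it was 0.811% and 0.667%. The median member stood at 185 CPM in NALM6 and U937, 168 in 697, 146 in RAMOS, 113 in JURKAT and 96.4 in THP1. By the sum of the 42, U937 did not stand above RAMOS. That sum was 11645 to 12592 CPM in RAMOS controls and 11758 to 11887 CPM in U937 controls. NCL, per kilobase of exon, ranged from 182 CPM in JURKAT to 474 CPM in NALM6, where the rank of NCL among the 42 was 1 in every line.

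Of the 42 members, 8 (19%) hold snoRNA genes within their span, against 1.28% of 19940 protein-coding genes in GENCODE v29. These hosts were NOP56, NOP58, DKC1, NCL, WDR43, TSR1, PPAN and GNL3. They included NOP56, higher in every line, and DKC1, lower in 5, and the hosts went both ways in every line. Of the 8, 4 were lower and 2 higher in NALM6, where 40.3% and 41.3% of all genes were, and 4 and 2 in THP1 (17% and 14% of all genes). In U937 3 were lower and 3 higher (22.1% of all genes each way), as in RAMOS (35.5% and 34.2%), while 697 had 2 lower and 3 higher (36.9% and 39.4%) and JURKAT 1 and 3 (6.27% and 6.71%). In the monocyte lines longer members were called lower more often than shorter ones by count. Of the 21 members with a span above the median of 23.2 kb, 11 were lower in THP1 and none higher, against 4 and 3 of the 21 shorter members, and in U937 11 were lower and 2 higher against 5 and 8. Over all genes tested, split at the same length, the longer genes of THP1 were called lower in 1836 of 7338 cases and the shorter in 361 of 5050, and those of U937 in 1712 of 6805 and 976 of 4882. Higher calls among all genes were 752 of the longer and 1021 of the shorter in THP1, and 1548 and 1108 in U937. In JURKAT all 6 called members were among the shorter 21, with 5 higher and 1 lower. All genes of JURKAT were lower in 565 of 7186 longer and 236 of 5087 shorter cases, and higher in 496 and 365. In NALM6, 12 longer and 13 shorter members were lower, in 697 9 and 10, and in RAMOS 10 and 8. Higher members were 7 and 4 in NALM6, 6 and 5 in 697 and 5 and 8 in RAMOS. Over all genes of NALM6, 3110 of 6582 longer and 1539 of 4583 shorter were lower, and 2316 and 2161 higher. In 697, 3166 of 7033 and 1408 of 4886 were lower, and 2353 and 2247 higher. In RAMOS, 2788 of 6341 and 1143 of 4489 were lower, and 1856 and 1858 higher. DDX10, the longest member at 275.9 kb, was the member with the deepest fall in THP1 and U937. This division was also made after the responses were known.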

How the data were processed

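Total RNA was sequenced in 34 libraries after TruSeq library preparation, per the labels' protocols. The authors deposited raw counts, a table for every library that pairs gene symbols with whole numbers of reads and has no line for unassigned reads. The submitters' processing notes name HISAT, HTSeq, DESeq2 and hg19 without versions. The authors' comparison tables were not used.

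Within each line, genes were filtered with filterByExpr (minimum count 10) and normalised by TMM. Etoposide was set against control with edgeR 4.0.16 in R 4.3.3 (quasi-likelihood F test, robust, two-sided), with Benjamini-Hochberg adjustment over all genes tested and a call at an adjusted p under 0.05. The 5 differences between lines came from 1 fit of all 34 libraries. CPM are TMM-scaled counts, except for the SPI1 and ITGAM levels, which are counts per 1 M of library size. The fits were tested on simulated data. Alternatives were RLE, upper-quartile and library-size scaling, no filter, DESeq2 1.42.0, a replicate block, and leaving out each library. Depth sets the precision, and PPAN and BOP1 had the lowest levels.

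The members and lists were chosen with earlier results of these data known. Values per library are given for the 3 lowest and 3 highest called members without overlap in each line, members called alike in 6 lines, the 5 with the widest range, and MYC; of the other lists, up to 3 genes per direction and line were eligible, and some further members are shown that were chosen after their values were seen. Spans and snoRNAs come from GENCODE v29 and promoters from RefSeq, matched by symbol, whose build differs from that of the counts. The counting strand is not given here.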

Additional observations from a re-analysis of the deposited data

Results flagged for a closer look

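The effect of etoposide differed between lines by a direct test for some members, in several contrasts at a share near that of all genes. In NALM6 against 697 it was higher for 4 of 42 and lower for 12 (15.1% and 16.1% of all genes), in THP1 against U937 for 2 and 3 (5.96% and 7.06%), and in RAMOS against JURKAT for 8 and 15 (16.9% and 18.9%). For RAMOS against the mean of the monocyte lines these were 10 and 9 (15.5% and 19.2%), and for 697 against the mean of the other lines 11 and 15 (23.8% and 24%). In contrasts with NALM6 or 697, pool and treatment cannot be told apart in those lines.

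Among the 5 members with the widest range, POLR1A differed by 0.33 (NALM6 against 697), −0.67 (RAMOS against JURKAT), −0.45 (RAMOS against the monocyte lines) and 0.32 (697 against the rest). UTP18 differed by 0.34, −0.98, −0.51 and −0.87 in the same order. POLR1E differed by 0.55 (RAMOS against JURKAT), 0.69 (RAMOS against the monocyte lines) and −0.50 (697 against the rest), and UTP20 by −0.21, −0.28 and 0.58. PPAN differed by 1.05 in 697 against the rest. MYC differed by 2.00 (NALM6 against 697), −0.48 (THP1 against U937), −1.73 (RAMOS against JURKAT), −1.05 (RAMOS against the monocyte lines) and −2.88 (697 against the rest).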

How the results depend on the processing

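No call of MYC changed under another scaling, filter or tool; without U937 control replicate 1 its U937 change was −0.17 and no longer called, and over the left-out libraries of that line it ran from −0.20 to −0.17. The count of lower members in JURKAT was 0 with DESeq2, in the fit of all libraries, with library size alone and with the replicate block. Higher members in JURKAT numbered 3 with the replicate block. Higher members in NALM6 numbered 17 with library size alone and with the upper quartile, and in THP1 8 and 5. In NALM6 against 697, the higher count was 8 with DESeq2, 10 with library size alone and 7 with RLE. In THP1 against U937, the higher count was 4 with DESeq2, 1 without the filter and 1 with the replicate block, and the lower count was 5 with DESeq2 and 0 with the replicate block. The cause was not tested.

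Leaving out 1 library at a time, higher members ranged from 2 to 11 in U937 and from 3 to 5 in JURKAT, and lower members in JURKAT from 0 to 1. Between lines the ranges were 2 to 6 higher and 7 to 16 lower (NALM6 against 697), 5 to 11 higher (RAMOS against JURKAT), and 0 to 2 higher and 1 to 4 lower (THP1 against U937). Same-numbered libraries did not deviate together, so the block result rests on shared numbers alone.

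Under upper-quartile scaling DDX18, DDX21 and WDR43 in 697 turned to 0.016, 0.040 and 0.15, and GNL3 in NALM6 turned to 0.14, or 0.12 with library size alone. Of 1520 recomputed changes of the members named by rule, 1385 kept direction and side of the threshold, 105 lost and 25 gained a call, and 5 turned. Depth limits PPAN and BOP1 most, the members at the lowest control levels in every line.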
